A study of Mus musculus with 6 samples.

Results

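The genes described here belong to the Yap and Taz pathway, and 9 were chosen by symbol: the coactivators Yap1 and Wwtr1 (the gene of Taz), their DNA-binding partner Tead1, the kinases Lats1 and Lats2, and the target genes Ccn1, Ccn2, Ankrd1 and Amotl2. Each symbol stood on 1 row of the deposited table, so all 9 were found among its 55359 genes. The rule for finding them used symbols only, but the genes themselves were picked with earlier results of these data known. The 6 libraries hold poly(A) RNA of entire E18.5 mouse lungs (strain C57), late in gestation. By genotype label 3 are wild type and 3 carry the Prmt5 knockdown, Prmt5 being an enzyme that dimethylates arginines symmetrically. The series text describes a knockout of Prmt5 in lung mesenchyme under Dermo1, a mesenchymal gene also called Twist2, while the sample labels say knockdown. Other cell types of the organ keep the gene under such a design, and their RNA was in every library. No allele, Cre line or litter is given for either group.

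Yap and Taz carry signals of tension, cell contact and cell shape into the nucleus. When the Hippo kinases are active, Lats1 and Lats2 phosphorylate both proteins, which are then kept in the cytoplasm or degraded. When the kinases are inactive, Yap and Taz bind TEAD factors and switch on genes such as Ccn1 and Ccn2. In the lung this pathway is known for its part in epithelial branching, in alveolar type 1 cell fate and in the response of mesenchyme to stretch. The activity of Yap and Taz is set mainly by phosphorylation and location of the proteins, which RNA levels do not report.

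Total counts ranged from 14383415 to 19262837 per library. Prmt5 itself stood at 46.7, 47.3 and 48.3 CPM (read counts relative to library size, scaled with TMM factors) in wild type, while the knockdown label had 39.6, 47.8 and 46.9 CPM, with a log2 fold change of -0.08 (edgeR adjusted p = 0.682). Since no drop of the targeted gene passed the test, the term knockdown-labelled is used throughout, and directions depend on the labels being right. The summed level of 14 heart muscle markers was 515, 637 and 3004 CPM in wild type replicates 1 to 3 and 4382, 12781 and 3422 CPM in knockdown-labelled replicates 1 to 3. Of these markers 12 of 14 had groups that did not overlap, all higher in the knockdown-labelled libraries, against 10.8% of all genes tested. Summed levels of 8 endothelial markers ranged from 2694 to 3072 CPM in wild type and from 1850 to 2326 CPM in knockdown-labelled libraries, and those of 8 alveolar type 1 markers from 5046 to 5707 and from 3285 to 4191 CPM. A sum weighs abundant genes most. Singly, 7 of the 8 endothelial and 5 of the 8 alveolar type 1 markers were lower without overlap, against 12.4% of all genes tested. Sums of surfactant and other alveolar type 2 markers (14463 to 18307 against 14987 to 18843 CPM) and of mesothelial markers (712 to 814 against 582 to 825 CPM) overlapped. Of the 6 mesothelial markers 3 had positive and 3 negative log2 fold changes. Wt1 was the only one without overlap, at 6.99 ± 1.41 against 13.7 ± 3.03 CPM, where 10.8% of all genes were higher without overlap. DESeq2 called 1 of the 6, which was higher, against 2.05% of all genes. The 8 markers of lung mesenchyme summed to 11271 to 12706 and 10259 to 11542 CPM but were split. Without overlap 4 were lower and 1 was higher, against 12.4% and 10.8% of all genes tested. Pdgfra stood at 229 ± 6.69 against 174 ± 20.4 CPM and Col1a1 at 1239 ± 123 against 1613 ± 246 CPM. In RNA of a whole organ, fewer cells of a type and less RNA per cell cannot be told apart.

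Across the pathway, Ccn1 showed the clearest difference, with 1.67-fold the wild type level in the knockdown-labelled lungs, and its adjusted p missed 0.05 in edgeR with the filter on low counts but not in DESeq2. Ccn2 was 1.29-fold the wild type level. Levels of the coactivators, of Tead1 and of the kinases differed by at most 1.19-fold. In edgeR's quasi-likelihood test 0 of the 9 genes had an adjusted p under 0.05, against 0.0338% of the 17728 genes tested (0.00564% higher and 0.0282% lower). Ccn1 was the only member under 0.10, where 0.542% of all genes lay. At an unadjusted p under 0.05 there were 3 (Ccn1 and Ccn2 higher, Lats2 lower), against 17.0% of all genes tested. With DESeq2, 1 member was called, Ccn1, on the higher side, against 4.54% of 17895 genes in either direction and 2.05% higher. Groups did not overlap for 3 members, Ccn1, Ccn2 and Wwtr1, against 23.2% of genes. All 9 passed the filter on low counts.

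Ccn1, Ankrd1 and Amotl2 are shown with the bases before their start sites. Among the members listed above as target genes, they are those for which the sequences were on hand. Each window is the 250 bases before the start of a RefSeq transcript on GRCm38.p6, given 5′ to 3′ on the gene's strand. For Ccn1 and Ankrd1 that start is the gene's outermost one, while for Amotl2 it lies inside the gene, whose RefSeq span begins at 102717091. Ccn1 lies at chr3:145649986-145650235 (minus strand), Ankrd1 at chr19:36119845-36120094 (minus strand) and Amotl2 at chr9:102717554-102717803 (plus strand). Capitals mark GGAATG, the core of the motif that TEAD factors bind, or its reverse complement CATTCC.
Ccn1: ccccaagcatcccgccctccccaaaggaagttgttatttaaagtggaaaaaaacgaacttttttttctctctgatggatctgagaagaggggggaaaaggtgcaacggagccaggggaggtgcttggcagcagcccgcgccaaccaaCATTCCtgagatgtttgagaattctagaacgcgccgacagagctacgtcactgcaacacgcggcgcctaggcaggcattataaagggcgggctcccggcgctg
Ankrd1: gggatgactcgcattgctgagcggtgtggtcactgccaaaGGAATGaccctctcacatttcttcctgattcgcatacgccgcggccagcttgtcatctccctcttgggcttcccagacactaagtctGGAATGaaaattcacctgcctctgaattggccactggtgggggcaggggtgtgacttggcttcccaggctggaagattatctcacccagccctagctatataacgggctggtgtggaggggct
Amotl2: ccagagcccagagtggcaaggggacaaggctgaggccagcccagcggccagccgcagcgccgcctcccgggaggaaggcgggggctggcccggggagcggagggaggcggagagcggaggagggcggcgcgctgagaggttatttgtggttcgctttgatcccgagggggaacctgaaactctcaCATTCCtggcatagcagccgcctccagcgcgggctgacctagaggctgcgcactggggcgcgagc

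The match in Ccn1 begins 103 bases before the start of that transcript, those in Ankrd1 begin 210 and 123 bases before it, and that in Amotl2 begins 65 bases before it. Windows were on hand for 7 of the 9 members, all but Ccn2 and Tead1, and 5 of the 7 held GGAATG on either strand in at least 1 window. Lats1 and Lats2 held none, although Lats2 is itself a Yap target. Counted by window, GGAATG was in 6 of 9, with overlapping windows of Wwtr1 holding the same site. Of 32817 windows of the same length across the genome 12.6% held GGAATG. The members were picked as genes of this pathway, not drawn at random. The CArG box, the site of serum response factor, was found in 0 of the 7 and in 1.47% of all windows. A match is a run of letters only, and nothing about binding was measured.

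Among the targets, Ccn1 (also called Cyr61; ENSMUSG00000028195, chromosome 3, 145352731 to 145355736, minus strand) encodes a secreted matricellular protein that binds integrins. Positions of genes are those of the deposited table, whose genome build is not given in the sources used here. Ccn1 stood at 96.3, 92.9 and 115 CPM in wild type replicates 1 to 3. In the knockdown-labelled replicates it stood at 162, 185 and 163 CPM. The lowest knockdown-labelled library lay above the highest wild type one, and wild type replicate 3 was the highest of its group. The means were 102 ± 12.1 and 170.0 ± 12.8 CPM (SD, n = 3 each). The fitted log2 fold change of 0.74 ± 0.10 (standard error) had a 95% confidence interval of 0.50 to 0.99 (edgeR adjusted p = 0.0804). By its unadjusted p (0.000185) it ranked 39 among the 17728 genes in edgeR. DESeq2 called it (adjusted p = 1.32e-07), and so did edgeR without the filter on low counts (adjusted p = 0.0178). With the mean level of the heart markers as a covariate the log2 fold change was 0.47 (edgeR adjusted p = 0.643).

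Ccn2 (also called Ctgf; ENSMUSG00000019997, chromosome 10, 24471340 to 24474581, plus strand) encodes connective tissue growth factor, a close relative of Ccn1 that promotes matrix deposition. Wild type libraries held 89.1, 76.9 and 86.3 CPM of it. Knockdown-labelled libraries held 122, 113 and 90.2 CPM. The groups did not overlap, but knockdown-labelled replicate 3 lay just above wild type replicate 1. The log2 fold change was 0.36 ± 0.12 (standard error), with a 95% interval of 0.07 to 0.65 (edgeR adjusted p = 0.222). Ccn1 and Ccn2 were the 2 members whose knockdown-labelled libraries all lay above the wild type ones, against 10.8% of genes tested.

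Ankrd1 (ENSMUSG00000024803, chromosome 19, 36089361 to 36097499, minus strand) encodes cardiac ankyrin repeat protein, which is abundant in heart muscle and is also a widely used Yap target. Its levels were 11.7, 27.2 and 161 CPM in wild type replicates 1 to 3. They were 237, 374 and 104 CPM in knockdown-labelled replicates 1 to 3. The groups overlapped, since wild type replicate 3 stood above knockdown-labelled replicate 3. The mean ± SD was 66.5 ± 81.9 and 238 ± 135 CPM (n = 3 each), and the log2 fold change of 1.84 spanned -0.38 to 4.06 in its interval (edgeR adjusted p = 0.375). Without wild type replicate 3 the log2 fold change was 3.62 (edgeR adjusted p = 0.0958). With heart marker level as a covariate it was -0.30 (edgeR adjusted p = 0.915).

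Ordered by Ankrd1 or by heart marker level, the libraries stood in the same order except that wild type replicate 3 and knockdown-labelled replicate 3 changed places. Per unit of Myh6, the atrial myosin heavy chain, Ankrd1 stood at 0.134, 0.173 and 0.167 in wild type and at 0.164, 0.108 and 0.0913 in knockdown-labelled libraries. Over the same libraries Myh6 itself ranged from 87.0 to 959 CPM in wild type and from 1140 to 3451 CPM in the knockdown-labelled group. The ratio spanned less than the genes did, and its groups overlapped. The mix of heart genes also varied. Knockdown-labelled replicate 2 held 958 CPM of Myl2, where no other library held more than 35.7 CPM. For Myl7 it held 346 CPM, and knockdown-labelled replicate 1 held 314 CPM. The part of this mix in the ratios was not tested. Per unit of other heart genes the order of libraries differed. Ankrd1 per Myl7 ranged from 0.432 to 0.753 in wild type and from 0.468 to 1.0799 in knockdown-labelled libraries, per Tnnt2 from 0.308 to 0.547 and from 0.215 to 0.533, and per Actc1 from 0.0966 to 0.269 and from 0.130 to 0.289. Taking 1 library of each group, the nearest in summed heart markers were wild type replicate 3 (3004 CPM) and knockdown-labelled replicate 3 (3422 CPM). This pair held 115 and 163 CPM of Ccn1 and 86.3 and 90.2 CPM of Ccn2. Single heart genes could differ more in the pair, as Myl2 did (5.38 and 35.7 CPM), or less, as Myl7 did (213 and 223 CPM). With 1 library a side, no spread can be set beside these values. Over all 6 libraries log2 CPM of Ccn1 and the mean log2 CPM of the heart markers had a Pearson r of 0.93 and a Spearman rho of 0.89. Without the 2 libraries farthest from the median heart level, wild type replicates 1 and 2, r was 0.74. Of the 4 libraries left, only replicate 3 was wild type, and the library with the most heart marker RNA was kept. For Ankrd1 r, rho and the r over those 4 were 0.95, 0.94 and 0.80, and for Ccn2 they were 0.71, 0.77 and 0.54. These points share library and group, so the values are a description. Since the lowest heart marker level with the knockdown label exceeded the highest in wild type, a covariate for it also takes up part of the difference between labels, and the parts cannot be told apart.

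**Figure D1:**
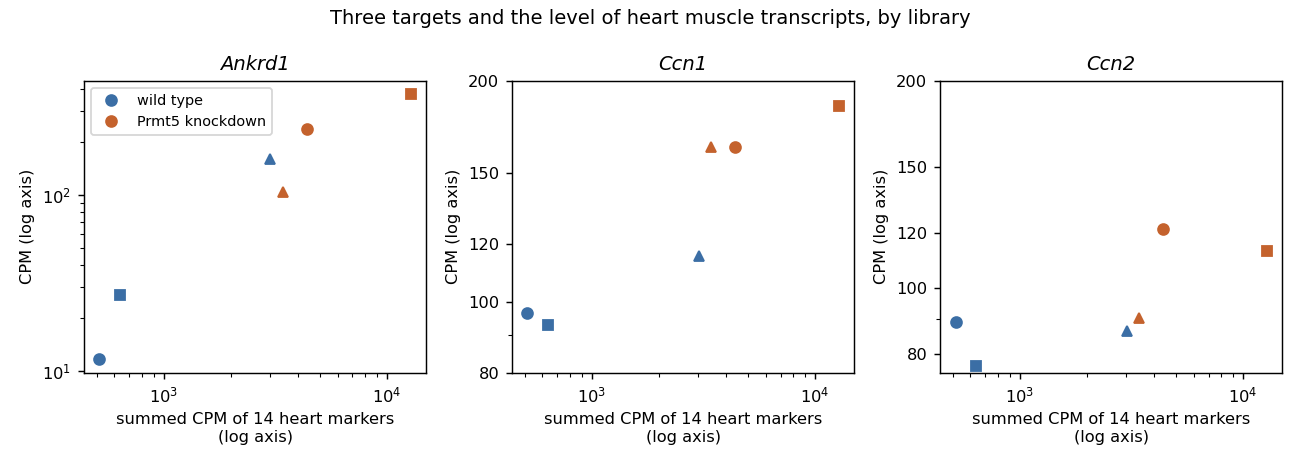
CPM of Ankrd1, Ccn1 and Ccn2 (vertical, log axis) against the summed CPM of 14 heart markers (horizontal, log axis) in each of the 6 libraries. Circles, squares and triangles are replicates 1, 2 and 3, blue is wild type and orange is knockdown-labelled. Ankrd1 is lowest in the 2 libraries with 515 and 637 CPM of heart markers. Ccn1 stands at 115 CPM in wild type replicate 3 (3004 CPM of heart markers) and at 163 CPM in knockdown-labelled replicate 3 (3422 CPM).

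Amotl2 (ENSMUSG00000032531, chromosome 9, 102593871 to 102610617, plus strand) encodes an angiomotin-like protein that is both a target of Yap and a brake on it. It stood at 174, 155 and 159 CPM in wild type, against 152, 156 and 137 CPM in knockdown-labelled ones. The groups overlapped, and the log2 fold change was -0.13 (interval -0.32 to 0.05, edgeR adjusted p = 0.444). Of the 4 genes listed here as targets, 3 thus had higher means in the knockdown-labelled group, Ankrd1 with overlap, and Amotl2 had a lower one. Lats2, counted here with the kinases but also a Yap target, had a lower mean as well. Of all 17728 genes tested, 9375 had positive log2 fold changes.

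Among the coactivators, Yap1 (ENSMUSG00000053110, chromosome 9, 7932000 to 8004597, minus strand) had the most similar means of the 9 genes in the 2 groups. Its values were 159, 178 and 165 CPM in wild type and 178, 157 and 162 CPM in knockdown-labelled libraries. The log2 fold change was -0.01 (interval -0.20 to 0.18, edgeR adjusted p = 0.961), so the data leave room for a change of up to about 0.871-fold or 1.13-fold. Wwtr1 (ENSMUSG00000027803, chromosome 3, 57363070 to 57483331, minus strand) had 344, 355 and 333 CPM in wild type and 326, 295 and 256 CPM in knockdown-labelled libraries. Every knockdown-labelled library lay below every wild type one, with a narrow gap between 326 and 333 CPM. The log2 fold change was -0.23 (interval -0.47 to 0.0015, edgeR adjusted p = 0.296). Wwtr1 was the only one of the 9 that did not overlap with lower values, against 12.4% of genes tested.

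Tead1 (ENSMUSG00000055320, chromosome 7, 112278525 to 112506014, plus strand), the DNA-binding partner, had 269, 244 and 271 CPM in wild type and 236, 271 and 216 CPM in knockdown-labelled libraries. Its groups overlapped, with knockdown-labelled replicate 2 as high as the highest wild type library (log2 fold change -0.11, edgeR adjusted p = 0.611).

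Of the kinases, Lats2 (ENSMUSG00000021959, chromosome 14, 57927119 to 57995845, minus strand), which is itself a Yap target, stood at 61.3, 51.8 and 61.7 CPM in wild type. It stood at 48.0, 53.6 and 45.2 CPM in knockdown-labelled libraries. Knockdown-labelled replicate 2 lay above wild type replicate 2, so the groups overlapped. The log2 fold change was -0.25 (interval -0.49 to -0.01, edgeR adjusted p = 0.281). Lats1 (ENSMUSG00000040021, chromosome 10, 7556978 to 7592224, plus strand) ranged from 104 to 115 CPM in wild type and from 98.7 to 109 CPM in knockdown-labelled libraries (log2 fold change -0.11, edgeR adjusted p = 0.511). Whether counting used strand is not stated, and Ccn2, Lats2, Wwtr1, Yap1 and Tead1 overlap genes on the other strand. These held between 1 and 493 counts over the 6 libraries, the most being 2310014F06Rik in Tead1, beside 23911 counts for Tead1.

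**Figure D2:**
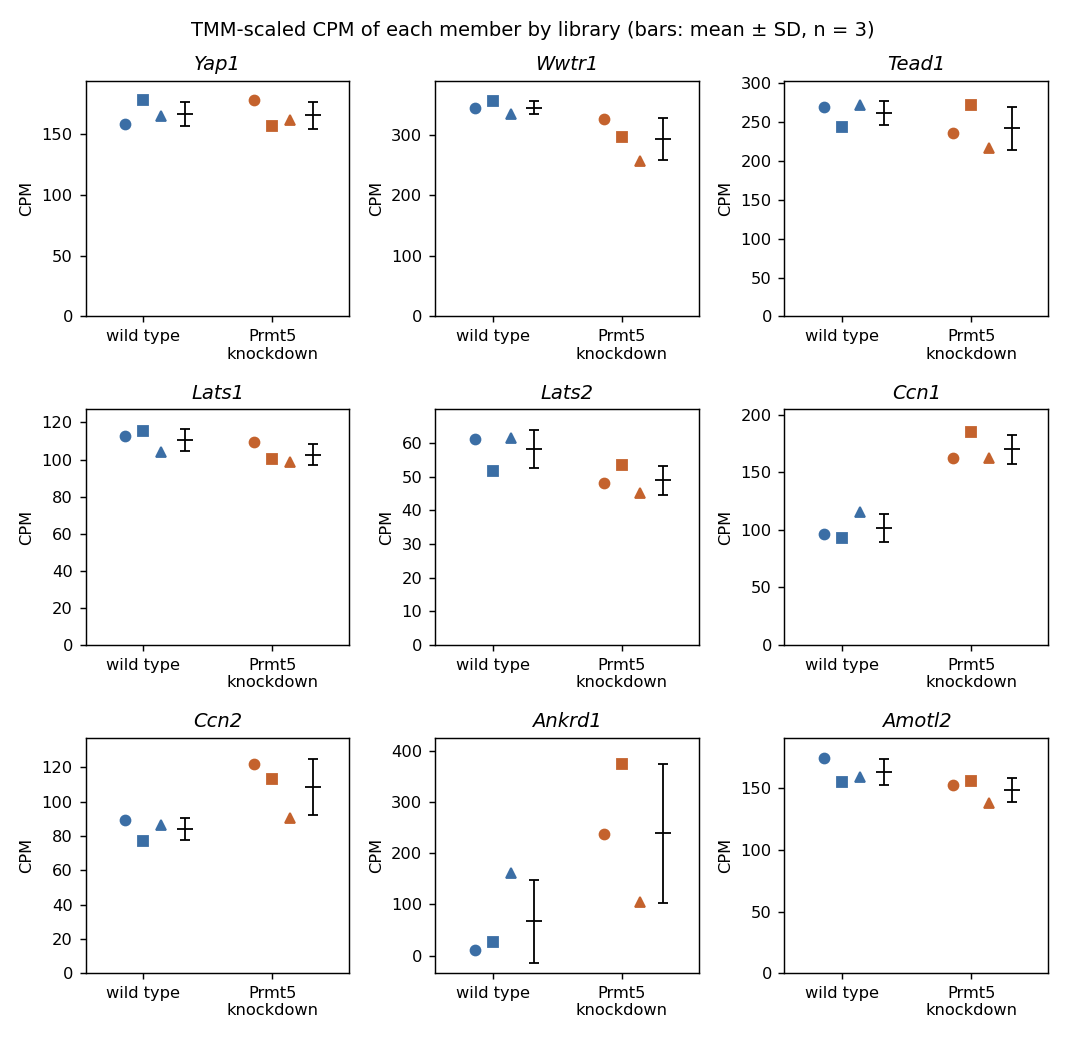
TMM-scaled CPM (vertical, linear axis) of each of the 9 genes in wild type (blue) and knockdown-labelled (orange) libraries, with circles, squares and triangles for replicates 1, 2 and 3 and black bars for the mean ± SD. Ccn1 is separated, at 92.9 to 115 against 162 to 185 CPM, while Yap1, Tead1, Lats1, Lats2, Ankrd1 and Amotl2 overlap.

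**Figure D3:**
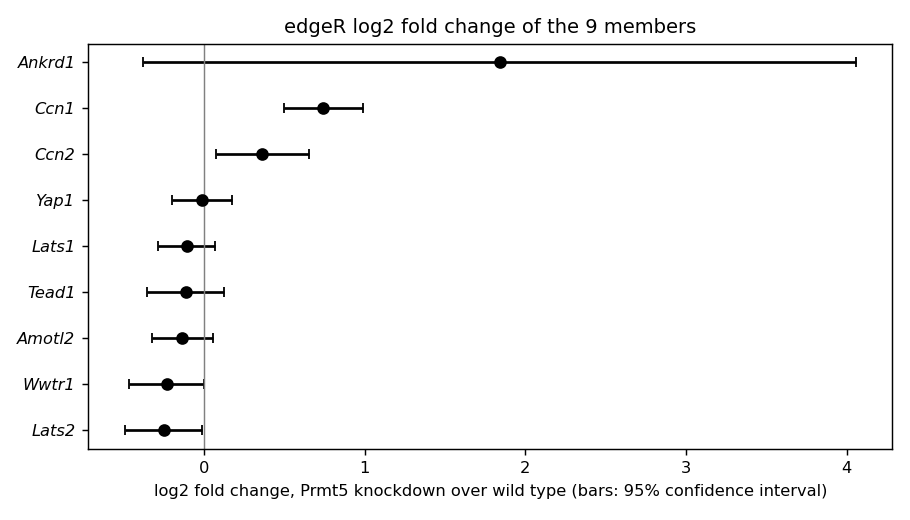
The edgeR log2 fold change of each of the 9 genes, knockdown-labelled over wild type, with its 95% confidence interval (horizontal). The interval of Ankrd1 runs from -0.38 to 4.06, and that of Ccn1 from 0.50 to 0.99.

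Levels of different genes were compared in FPKM, which divides by exonic length as well as by library total. In wild type Wwtr1 was the most abundant, at 71.4 ± 1.55 FPKM (SD, n = 3), followed by Ccn1 at 49.97 ± 6.49, Ccn2 at 29.2 ± 2.37, Amotl2 at 25.7 ± 1.61 and Ankrd1 at 23.0 ± 28.5 FPKM. Tead1 (19.1 ± 1.26 FPKM) and Yap1 (17.9 ± 0.991 FPKM) came next, then Lats1 (15.1 ± 0.650 FPKM) and Lats2 (8.30 ± 0.859 FPKM). Neighbours in this order whose ranges overlapped were Ccn2 with Amotl2, Amotl2 with Ankrd1, Ankrd1 with Tead1, and Tead1 with Yap1. In FPKM Taz transcript thus exceeded Yap transcript, by 3.86 to 4.20 times in the 3 wild type libraries. Part of this factor comes from the exonic lengths divided by, 4779 bases for Wwtr1 and 9257 for Yap1. Without that division the wild type means were 344 and 167 CPM.

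In the knockdown-labelled group the order began with Ccn1 (84.2 ± 4.97 FPKM), Ankrd1 (82.1 ± 45.3 FPKM) and Wwtr1 (61.2 ± 7.19 FPKM), whose neighbouring ranges overlapped. Ccn2 (37.8 ± 5.47 FPKM) and Amotl2 (23.6 ± 1.26 FPKM) followed without overlap. Yap1 (17.9 ± 1.38 FPKM) and Tead1 (17.8 ± 1.76 FPKM) overlapped each other. Lats1 (14.1 ± 0.863 FPKM) and Lats2 (7.02 ± 0.491 FPKM) were again the least abundant. Ccn1 in that group lay above Wwtr1 in every library, at 80.9 to 89.9 against 54.4 to 68.7 FPKM, where in wild type it lay below, at 45.3 to 57.4 against 70.0 to 73.1 FPKM.

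Ratios of 2 members within a library do not depend on scaling between libraries, and 4 were compared with two-sided exact permutation tests, for which 3 against 3 libraries cannot go below p = 0.1. Wwtr1 over Yap1 was 4.20, 3.86 and 3.91 in wild type and 3.54, 3.65 and 3.06 in knockdown-labelled libraries. These did not overlap, and the difference of mean log2 ratios was -0.23 (exact p = 0.1, 0.267 after Benjamini-Hochberg adjustment over the 4). Ccn1 over Ccn2 was 1.53, 1.71 and 1.89 in wild type and 1.89, 2.32 and 2.56 in knockdown-labelled libraries. The highest wild type ratio and the lowest knockdown-labelled one met, and the log2 difference was 0.39 (exact p = 0.2, adjusted 0.267). Lats2 over Lats1 overlapped, with a log2 difference of -0.14 (exact p = 0.4, adjusted 0.400). Ankrd1 over Ccn1 ranged from 0.0847 to 0.973 in wild type and from 0.448 to 1.42 in knockdown-labelled libraries, with a log2 difference of 1.75 (exact p = 0.2, adjusted 0.267).

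**Figure D4:**
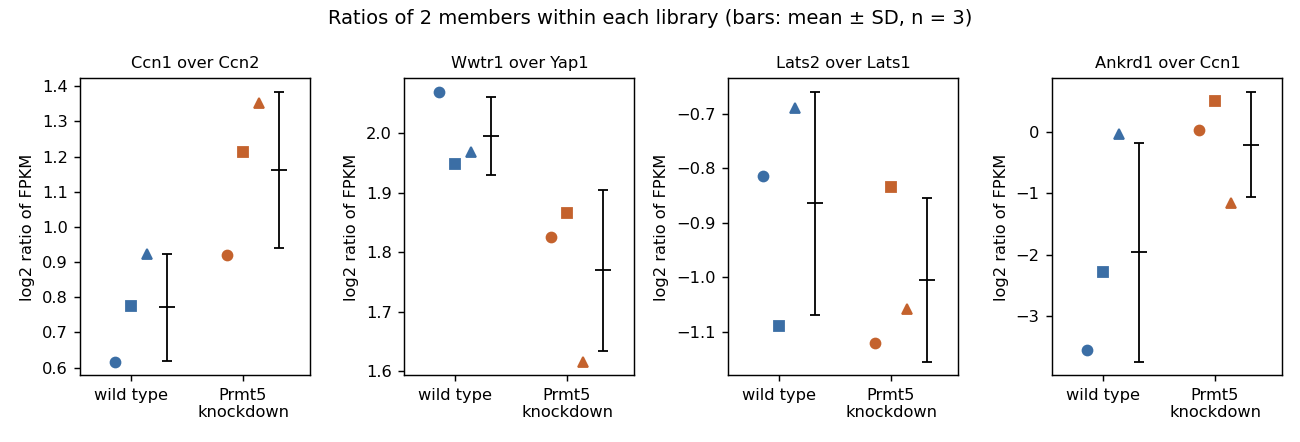
Log2 ratio of FPKM of 2 genes (vertical, a separate linear axis in each panel) in wild type (blue) and knockdown-labelled (orange) libraries, with circles, squares and triangles for replicates 1, 2 and 3 and bars for the mean ± SD. Wwtr1 over Yap1 is the only one of the 4 whose groups do not overlap.

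Other genes of the Hippo cascade mostly had lower means in the knockdown-labelled libraries, with 0 of 22 past the threshold in edgeR and 4 in DESeq2. Of 22 kinases, adaptors and upstream regulators, 20 lay below 0 in log2 fold change and the median was -0.21, against 0.01 over all genes tested, of which 47.1% were negative. In edgeR 12 had an unadjusted p under 0.05, all lower, against 8.52% of all genes that were lower at that level. The 4 that DESeq2 called were lower, as were 2.50% of genes. Groups did not overlap for 13 of the 22, all lower, against 12.4% of all genes. Summed endothelial and alveolar type 1 markers were also lower in every knockdown-labelled library (at most 2326 against at least 2694 CPM, and at most 4191 against at least 5046 CPM), and their part in these values was not tested. Wwc2, a scaffold that activates Lats kinases, stood at 167 ± 8.69 against 128 ± 7.29 CPM (SD, n = 3 each, edgeR adjusted p = 0.117). The giant cadherin Fat4 stood at 107 ± 5.503 against 77.7 ± 10.1 CPM, the Lats-binding LIM protein Ajuba at 98.6 ± 9.73 against 76.1 ± 5.75 CPM and the upstream kinase Taok1 at 182 ± 7.87 against 146 ± 12.9 CPM. The core kinases Stk3 (66.9 ± 2.34 against 63.7 ± 3.51 CPM) and Stk4 (117 ± 0.894 against 102 ± 10.2 CPM) and the membrane scaffold Nf2 (94.2 ± 2.20 against 98.1 ± 6.42 CPM) had unadjusted p-values of 0.359, 0.0552 and 0.444 in edgeR. Amotl1, the paralog of Amotl2, stood at 192 ± 10.3 against 176 ± 1.71 CPM.

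Among 6 tested TEAD factors and Vestigial-like cofactors outside the 9, which compete with or assist Yap on TEAD, 0 were called in edgeR and 3 had an unadjusted p under 0.05, all lower (8.52% of all genes). DESeq2 called 1, which was lower (2.50% of all genes). Tead4 stood at 38.4, 30.6 and 31.0 CPM in wild type, against 22.1, 25.8 and 22.1 CPM in knockdown-labelled ones (log2 fold change -0.51, edgeR adjusted p = 0.146). Its groups did not overlap, where 12.4% of all genes were lower without overlap. The cofactor Vgll3 stood at 35.7 ± 2.70 against 27.2 ± 4.31 CPM and Vgll4, which opposes Yap on TEAD, at 87.8 ± 2.81 against 75.9 ± 3.12 CPM. Tead2 (94.8 ± 2.09 against 94.4 ± 9.08 CPM) and Tead3 (86.4 ± 1.80 against 83.7 ± 2.14 CPM) overlapped between groups.

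Of 19 further genes widely used as Yap and Taz targets, 7 had higher and 12 had lower means with the knockdown label. Their median log2 fold change was -0.12, against 0.01 over all genes tested, of which 47.1% were negative. In edgeR 0 of the 19 were called. By unadjusted p (under 0.05) 1 was higher and 7 were lower, against 8.48% and 8.52% of all genes. DESeq2 called 3, all lower, against 2.50%. Arhgef17 stood at 298 to 339 against 244 to 272 CPM and Myof, a membrane repair protein, at 191 ± 28.5 against 135 ± 13.5 CPM. Dock5 stood at 47.3 ± 5.76 against 38.6 ± 0.993 CPM. The one higher at that level was Nt5e, the ecto-nucleotidase CD73 (13.2 ± 1.39 against 17.2 ± 1.62 CPM), chosen after its values were seen. The receptor kinase Axl (131 ± 9.70 against 155 ± 18.2 CPM) and Crim1 (107 ± 16.6 against 95.4 ± 18.49 CPM) overlapped between groups. Ajuba and Ptpn14 are on both this list and the Hippo list.

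Within the CCN family, the 3 further tested genes had higher means in the knockdown-labelled group, as Ccn1 and Ccn2 did. Of all 17728 genes tested, 9375 had positive log2 fold changes. In edgeR 0 of the 3 were called. Ccn3 was the 1 with an unadjusted p under 0.05, on the higher side, against 8.48% of all genes. DESeq2 called 1, which was higher, against 2.05% of all genes. Ccn3 stood at 10.1, 20.1 and 16.0 CPM in wild type, against 38.7, 21.7 and 42.0 CPM in knockdown-labelled ones. Its groups did not overlap, where 10.8% of all genes were higher without overlap. The log2 fold change of Ccn3 was 1.15 ± 0.32 (standard error, edgeR adjusted p = 0.174). Ccn4 stood at 27.1 ± 6.84 against 35.0 ± 4.91 CPM and Ccn5 at 1.36 ± 0.656 against 2.02 ± 0.526 CPM, both with overlap. Ccn6 had 5 to 13 counts in each library and was not tested.

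Ccn1 is also an immediate early gene and a target of serum response factor, so genes of both kinds were read beside it. Of 15 tested immediate early genes, 12 had positive log2 fold changes, with a median of 0.31, against 9375 of all 17728 genes and a median of 0.01. In edgeR 0 of the 15 were called and 4 were higher at an unadjusted p under 0.05 (8.48% of all genes were higher at that level). DESeq2 called 1, which was higher, against 2.05% of all genes. Egr1 stood at 15.02, 13.7 and 23.1 CPM in wild type, against 27.1, 48.2 and 33.7 CPM in knockdown-labelled ones. Its groups did not overlap, where 10.8% of all genes were higher without overlap. Fos (23.9 ± 5.46 against 41.0 ± 16.2 CPM), Atf3 (9.45 ± 3.96 against 20.7 ± 11.9 CPM) and Jund (128 ± 11.6 against 163 ± 28.5 CPM) overlapped, as did Jun (207 ± 17.6 against 226 ± 71.5 CPM). Knockdown-labelled replicate 1 was the highest library for Fos, Atf3, Jund and Jun, and replicate 2 for Egr1 and Ccn1. Any part of these genes' response in the level of Ccn1 was not tested.

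Of 13 genes of serum response factor and the actin cytoskeleton, 0 were called in edgeR, 2 were higher and 3 lower by unadjusted p (under 0.05), against 8.48% and 8.52% of all genes. DESeq2 called 2 in each direction, against 2.05% higher and 2.50% lower. Vinculin (Vcl), of focal adhesions, stood at 185, 173 and 183 CPM in wild type, against 118, 138 and 114 CPM in knockdown-labelled ones (log2 fold change -0.55, edgeR adjusted p = 0.0942). Filamin A (Flna), an actin crosslinker, stood at 1258 ± 45.1 against 991 ± 21.1 CPM. The higher ones were tropomyosin 1 (Tpm1, 623 ± 163 against 1055 ± 235 CPM) and the myosin light chain Myl9 (155 ± 47.9 against 239 ± 31.7 CPM), which both peaked in knockdown-labelled replicate 2, where heart marker RNA also peaked. Srf (81.4 ± 2.37 against 91.2 ± 18.9 CPM) and the smooth muscle genes Acta2 (300.5 ± 27.4 against 345 ± 92.4 CPM) and Tagln (40.1 ± 4.77 against 46.0 ± 11.3 CPM) overlapped between groups.

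**Figure D5:**
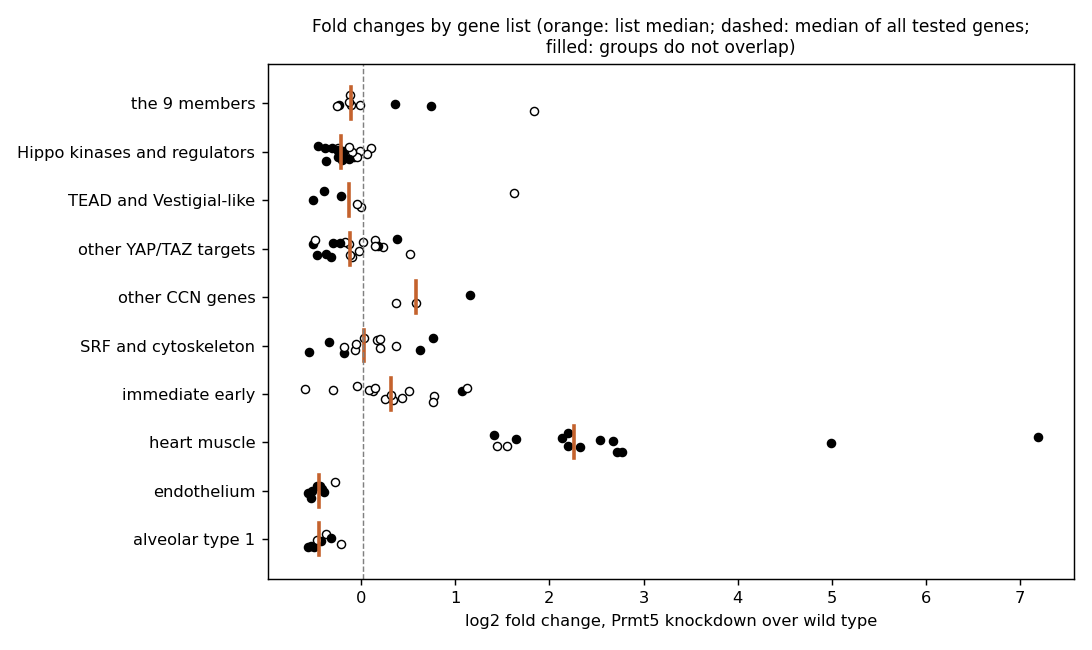
Log2 fold changes of single genes (points, horizontal axis, knockdown-labelled over wild type) in each list, filled where the groups do not overlap, with the list median in orange and the median of all genes tested as a dashed line. The Hippo list centres on -0.21 and the heart muscle markers on 2.26.

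Ccn1 was compared with 10779 genes that had a mean of at least 10 CPM and a symbol not that of a predicted model, pseudogene or clone. The most like it over the 6 libraries were Ndufb5, Esrra, Dsg2, Rnf128 and Emilin2. Their Pearson r was 0.999, 0.994, 0.992, 0.992 and 0.991 and their Spearman rho 1.00, 0.943, 1.00, 1.00 and 1.00 (n = 6 libraries). They encode a subunit of mitochondrial complex I, a nuclear receptor of energy metabolism, a desmosomal cadherin, a ubiquitin ligase and a glycoprotein of elastic fibres. For none of them did the groups overlap (all higher with the knockdown label), so these values carry the difference between groups as well as the spread inside them. Ndufb5 stood at 56.4, 54.9 and 61.3 CPM in wild type, against 70.7, 75.1 and 71.4 CPM in knockdown-labelled ones. All 6 genes had their highest value in knockdown-labelled replicate 2 and, in wild type, in replicate 3, which are also the libraries with the most heart marker RNA of their groups.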

How the data were processed

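Gene counts and FPKM of 6 whole-lung libraries were used. Per the file headers, the deposited table gives for each gene a raw count and an FPKM value in each library, and its exonic length. Counts and FPKM were made by the authors. Tools listed, with no role, in the submitters' processing notes are HTSeq 0.6.1, HISAT2 2.0.1 and cutadapt 1.9.1. Genome build and strandedness have no statement in the labels or headers used. FPKM recomputed from counts, totals and lengths agreed within 0.0051 for all 332154 entries.

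The edgeR 4.0.16 quasi-likelihood test was run in R 4.3.3 on the deposited counts (filterByExpr, TMM, group as the only term), with Benjamini-Hochberg adjustment over 17728 genes and calls under 0.05, two-sided. For a standard error, the size of the log2 fold change was divided by the square root of F. Scripts were tested on simulated data. Within each group libraries differed by more than counting noise. The labels do not say whether embryos came from separate litters, so p-values reflect only how these samples spread, and that spread may be technical. A floor of 3 counts is 0.156 to 0.209 CPM. Correlations used log2(CPM + 0.5).

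Marker lists are given as sums. Genes named otherwise are the 9 members, Prmt5, fixed pathway genes, up to 4 genes with the smallest unadjusted p under 0.05 in each list, and the 5 genes closest to Ccn1. Members and lists were chosen with earlier results of these data known, and lists are described by counts and medians, with no set test. The list of further targets also held Cyr61 and Ctgf, older names of Ccn1 and Ccn2, which matched no row. Motifs were searched in RefSeq promoter windows of GRCm38.p6. Alternatives were 2 other scalings, totals without abundant, heart, erythroid and mitochondrial genes, no filter, robust edgeR, DESeq2 1.42.0, limma 3.58.1 on log2(FPKM + 1), leaving out each library, and heart marker level or embryo sex (by Y-linked counts, 1 male in wild type and 2 in the other group) as a covariate.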

Additional observations from a re-analysis of the deposited data

How the results depend on the processing

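No paired analysis was possible because the groups share no library numbers in their titles. Members called went from 0 to 1, Ccn1, without the filter, with DESeq2, and with wild type replicate 3 and knockdown-labelled replicate 2 both left out, a setting chosen after seeing the data (142 genes called in all, Ccn1 at an edgeR adjusted p of 0.0350). Over its 16 alternatives the log2 fold change of Ccn1 ranged from 0.47 to 0.85 and its adjusted p from 1.32e-07 to 0.643, so its call depends on the tool, filter and libraries. All genes called, 6 with all libraries, were 813 with DESeq2, 81 without the filter, 15 with robust edgeR, 1 with the heart covariate, 0 with embryo sex, and 0 to 17 with 1 library left out, 17 being without wild type replicate 3. Leaving out knockdown-labelled replicate 3 gave 1, and each of the other 4 libraries gave 0. DESeq2 called 4 Hippo genes, 1 TEAD or Vestigial-like gene, 3 further targets, 1 CCN gene, 4 cytoskeletal and 1 immediate early gene, where edgeR called 0 of each. Of 144 member results, 133 kept direction and call, 3 gained a call (Ccn1) and 8 changed sign. Yap1 was at 0.015 with totals lacking abundant genes, 0.052 with the heart covariate, 0.011 with the 2 libraries left out, and -0.058 to 0.035 with 1 library left out. Lats1 was at 0.0015 and Ankrd1 at -0.30 with the heart covariate. Leaving out 1 library, Ankrd1 ranged from 1.34 to 3.62. The cause of these shifts was not tested. All 4 log2 ratio differences kept their sign under every alternative run, but leaving out 1 library moved some by over 1.5 times. Ankrd1 over Ccn1, at 1.75 with all libraries, was 0.95 without wild type replicate 1 and 2.72 without wild type replicate 3. Lats2 over Lats1, at -0.14, was -0.05 without wild type replicate 3, -0.08 without knockdown-labelled replicate 1, -0.25 without wild type replicate 2, and leaving out knockdown-labelled replicate 2 gave -0.23. Wwtr1 over Yap1, at -0.23, was -0.15 without knockdown-labelled replicate 3. The 9 genes had 189 to 5562 counts in each library, and with 3 libraries a group the spread between them exceeded counting noise.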

Other observations

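Over the 6 libraries the 36 pairs of the 9 genes had Pearson r of log2 CPM from -0.78 to 0.90, with 16 above 0, and the points share library and group. The highest were Tead1 with Lats2 (r = 0.90, Spearman rho = 0.83), Wwtr1 with Lats1 (0.88, rho 0.94), Lats2 with Amotl2 (0.87, rho 0.94) and Ccn1 with Ankrd1 (0.86, rho 0.77). Ccn1 was lowest against Lats1 (-0.78, rho -0.89) and Wwtr1 (-0.75, rho -0.94). With 6 libraries in 2 groups these values are a description only, and these pairs were chosen after their values were seen.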
